A study of Mus musculus with 6 samples.

Results

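The 46 genes described here encode the machinery of mitosis: its kinases and cyclins, the kinetochore with its checkpoint, the spindle and cytokinesis proteins, condensin and other chromosome proteins, and the ubiquitin and transcription factors that open and close the phase. They were chosen by name, and all 46 were found among the 20938 genes of the deposited table. RNA of whole subcutaneous tumours was sequenced on day 19, from 3 tumours of control B16F10 cells and 3 tumours of B16F10 cells labelled as overexpressing YKL-40. B16F10 is a mouse melanoma line of C57BL/6 origin, and YKL-40 is a secreted chitinase-like protein. The hosts of both groups were male C57BL/6 mice, 6 weeks old, implanted subcutaneously, in the left hind leg, with cells suspended in 200 µL. All 6 samples carry the genotype label WT, and the labels name neither the vector of the control cells, nor the species of the overexpressed sequence, nor whether each tumour came from its own mouse. The p-values therefore measure only the spread between these samples, which may be technical. The title of the series asks what YKL-40 does to melanoma proliferation, and these genes are transcripts of dividing cells.

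A cell enters mitosis when the kinase Cdk1, bound to cyclin A or cyclin B, is switched on. Condensin then compacts the chromosomes, kinesins and microtubule bundlers build the spindle, and kinetochores on the centromeres attach each chromosome to it. The spindle checkpoint holds back the anaphase-promoting complex until every kinetochore is attached, after which cyclins and securin are degraded and the cell divides. Most of these genes are transcribed late in the cycle, under the MuvB complex with B-Myb and Foxm1, and their RNA is low in resting cells. In a whole tumour, their RNA therefore comes from cycling cells of any type, and fewer cycling cells and less RNA per cycling cell cannot be told apart.

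The upstream sequences are shown because the shared control of these genes acts there. The textbook motifs are the cell cycle homology region, searched as TTTGAA and TTCGAA, and the CCAAT box bound by NF-Y. Both strands were searched in the 250 bases before the start. TTCGAA reads the same on both strands, and matches may overlap by their end letters. A promoter was found for 37 of the 46 genes in the RefSeq table of GRCm38.p6. Of these 37 genes, 26 (70.3%) held CCAAT, against 37.5% of all 27025 genes with a promoter in the table. TTTGAA or TTCGAA was found in 13 (35.1%) against 19.6%, and 12 (32.4%) held a homology region and a CCAAT together, against 7.0%. Within 60 bases of the start, 7 of the 37 (18.9%) had TTTGAA or TTCGAA, against 3.95%. A spacing was noticed in the positions and then counted: 9 genes (24.3%) had a pair of CCAAT boxes that began 31 to 34 bases apart, against 1.25% of all. That spacing was picked in these genes, so its share in them is a description with no test. Among the 9049 promoters of tested genes, a closer background, CCAAT was found in 41.0%, TTTGAA or TTCGAA in 14.7%, both kinds of motif in 5.95%, a homology region within 60 bases of the start in 2.55% and the spaced pair in 2.23%. These are matches of letters, not shown sites of binding. The windows below run 5′ to 3′ on the strand of the gene, and exon bases of the annotation were left out of them. Capitals mark the motifs on either strand (ATTGG and TTCAAA are CCAAT and TTTGAA read on the other strand), and a position is that of the first base of a match, counted back from -1 at the base before the start.
Ccnb2: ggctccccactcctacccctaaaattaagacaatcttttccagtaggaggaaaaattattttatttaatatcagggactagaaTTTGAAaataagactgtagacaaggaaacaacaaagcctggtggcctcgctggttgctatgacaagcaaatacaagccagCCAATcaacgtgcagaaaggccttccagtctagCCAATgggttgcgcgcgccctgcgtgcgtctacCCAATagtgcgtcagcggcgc
Cdc20: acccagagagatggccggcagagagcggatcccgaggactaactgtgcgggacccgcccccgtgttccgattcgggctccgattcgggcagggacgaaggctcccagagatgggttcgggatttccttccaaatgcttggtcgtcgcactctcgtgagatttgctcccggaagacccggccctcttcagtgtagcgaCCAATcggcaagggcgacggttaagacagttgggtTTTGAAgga
Kif11: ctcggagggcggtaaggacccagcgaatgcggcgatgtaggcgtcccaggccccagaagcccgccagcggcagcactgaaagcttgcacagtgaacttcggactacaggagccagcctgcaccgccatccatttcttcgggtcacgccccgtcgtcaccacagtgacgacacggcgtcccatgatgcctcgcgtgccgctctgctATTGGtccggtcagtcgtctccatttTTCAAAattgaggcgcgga
Top2a: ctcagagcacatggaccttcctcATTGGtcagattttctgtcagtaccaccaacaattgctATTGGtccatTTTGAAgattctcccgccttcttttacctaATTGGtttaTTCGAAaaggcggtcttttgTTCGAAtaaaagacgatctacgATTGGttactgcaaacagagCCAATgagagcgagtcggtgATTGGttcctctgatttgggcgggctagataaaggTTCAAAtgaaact
Mki67: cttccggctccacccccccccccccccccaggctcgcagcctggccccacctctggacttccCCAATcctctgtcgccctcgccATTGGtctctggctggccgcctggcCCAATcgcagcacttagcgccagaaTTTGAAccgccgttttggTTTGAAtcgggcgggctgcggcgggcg
Melk: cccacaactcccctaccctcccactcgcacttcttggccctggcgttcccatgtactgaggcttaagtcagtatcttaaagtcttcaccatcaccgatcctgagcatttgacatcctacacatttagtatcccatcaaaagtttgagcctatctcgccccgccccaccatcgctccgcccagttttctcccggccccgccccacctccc

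Ccnb2, the gene of cyclin B2 (chr9:70421555-70421804, minus strand), is shown for its spaced CCAAT boxes, which begin at -87, -54 and -21. Cdc20 (chr4:118437353-118437593, minus strand) has TTTGAA at -18, with a CCAAT at -53 and another at -8, which lies outside the window shown. Kif11 (chr19:37376132-37376381, plus strand) has both motifs as read on the other strand, TTTGAA at -19 and its only CCAAT at -45. Top2a (chr11:99024200-99024439, minus strand) holds every motif searched, with 6 CCAAT boxes, and Mki67 (chr7:135716451-135716629, minus strand) holds 2 copies of TTTGAA and 3 of CCAAT. Melk (chr4:44300667-44300875, plus strand) is shown as a gene with none of these letters in its window. The differences between the groups are given by motif without a test. The median difference, YKL-40-labelled minus control in log2(FPKM + 1), was -0.05 for the 26 genes with CCAAT and -0.05 for the 11 without, and -0.05 for the 13 with a homology region and -0.03 for the 24 without. It was 0.06 for the 9 genes with the spaced pair (range -0.35 to 0.15) and -0.08 for the 28 without (-0.52 to 0.27), and -0.15 for the 2 with TTCGAA and -0.03 for the 35 without. The ranges overlap for each of these motifs.

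FPKM counts fragments scaled to transcript length and to library size, so levels of different genes can be set side by side. The trend with length described below limits this for genes of unlike length. The FPKM values summed to between 468605 and 490955 per library, and total read numbers are not given in the sources used here. The melanocyte genes that define the labelled cell type were present throughout, with Pmel at 3656 FPKM or more in every library. The mouse gene of YKL-40, Chil1 in the table, was listed at 0.0644, 0 and 0.0242 FPKM across controls 1 to 3 and at 0 in each YKL-40-labelled library, so the group labels could not be checked on it. Reads of a human or recoded sequence need not map to this gene, whereas a mouse sequence would be counted there. Directions below rest on the labels.

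None of the 46 genes passed the test between the groups. With limma over 11241 genes and an adjusted p under 0.05, 0 of 46 were called, where 0.436% of all tested genes were. At an unadjusted p under 0.05 there were 2 of 46, Melk higher and Smc2 lower, where 18.0% of all tested genes reached that level. The groups did not overlap for 5 of 46 genes, against 24.4% of all tested genes. Of those 5, Aurka, Melk, Birc5 and Cdca8 were above the highest control in all 3 YKL-40-labelled libraries (10.3% of tested genes were), and Bub1 was lower (14.2%). The difference lay above 0 for 16 genes and below 0 for 30, with a median of -0.05 and a range from -0.52 to 0.27, and the median over all tested genes was -0.04. Adjusted p-values in limma ran from 0.224 to 0.997.

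**Figure D1:**
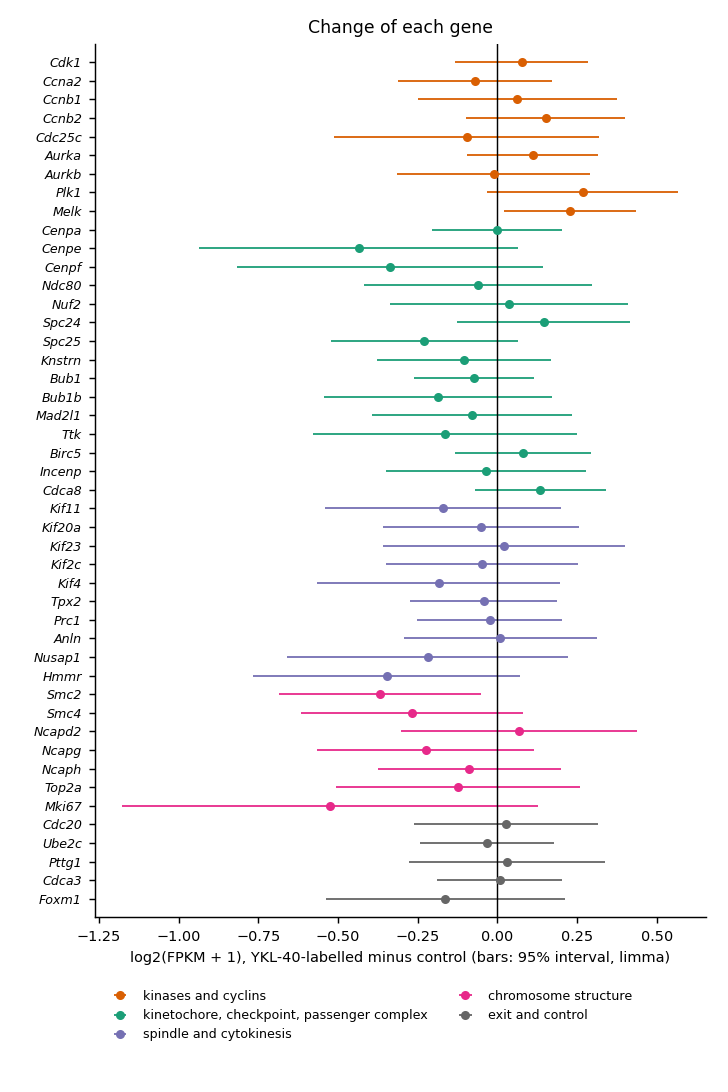
Difference of each of the 46 genes on the log2(FPKM + 1) scale, YKL-40-labelled minus control, with the 95% interval from limma and the role of the gene in colour. Intervals of all but Melk and Smc2 include 0, and the longest belongs to Mki67, from -1.18 to 0.13.

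The size of a difference that could have gone unseen varies by gene. Over the 46 genes the 95% interval had a median half-width of 0.31 on the log2 scale, close to the 0.30 of all tested genes. Its ends lay between -1.18 and 0.57 over all 46. In simulated data with the real spread of each gene, differences of 0.5, 1 and 2 on the log2 scale were recovered in 30.0%, 74.0% and 95.8% of genes. The changed genes were picked from all tested genes, not from the 46. Each gene was drawn independently, so shifts of a library shared by many genes were left out. A difference of 0.5 in a single gene would thus often be missed in this design.

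Single libraries stood apart over many of the genes at once. Averaged over the 46 genes, the level in log2(FPKM + 1) was 5.03, 4.92 and 4.82 in controls 1, 2 and 3 and 4.67, 4.99 and 4.90 in YKL-40-labelled libraries 1, 2 and 3. The group means were 4.92 ± 0.10 and 4.85 ± 0.17 (SD, n = 3 each), a difference of -0.07. The groups overlapped, and the lowest level was in YKL-40-labelled library 1 and the highest in control 1. That library held the lowest value of 31 of the 46 genes (29.0% of all tested genes) and the highest of 0. Control 1 held the highest value of 19 genes (27.9% of all) and YKL-40-labelled library 2 that of 13 (14.4%). Relative to the control mean, the median over the genes was -0.22 in YKL-40-labelled library 1, 0.06 in library 2 and -0.03 in library 3. Without YKL-40-labelled library 1 the median difference between the groups was 0.02 in place of -0.05, and 13 of the 46 genes had the other sign.

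**Figure D2:**
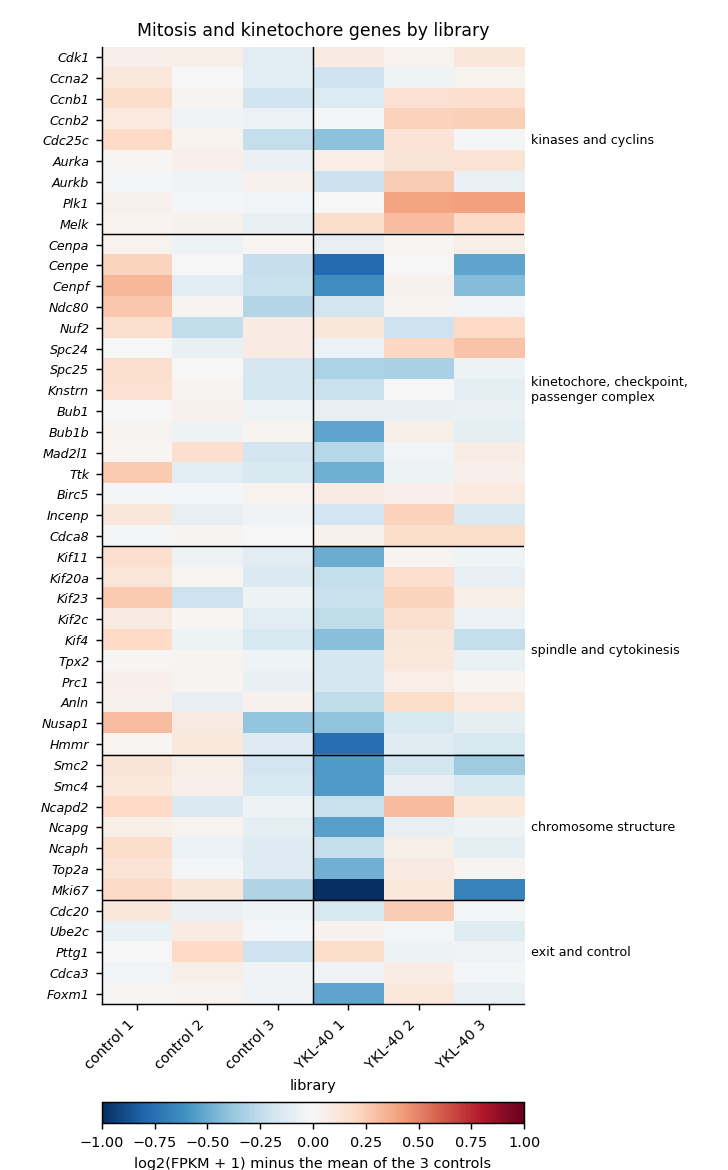
Level of each of the 46 genes in each library, as log2(FPKM + 1) minus the mean of the 3 controls, with genes ordered by role. The column of YKL-40-labelled library 1 holds most of the low values, down to -1.01 for Mki67, while Plk1 reaches 0.40 and 0.41 in libraries 2 and 3.

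Among the 9 kinases, cyclins and their activator, 0 passed and 6 had a difference above 0, with a group median of 0.08. Cdk1, the kinase that drives entry into mitosis, was at 107, 108 and 95.6 FPKM across controls 1 to 3 and 109, 106 and 112 across YKL-40-labelled libraries 1 to 3. Ccnb1, the gene of cyclin B1, which has pseudogene copies, was at 137, 124 and 106 against 111, 135 and 137 FPKM, so the groups covered the same range. Ccna2, the gene of cyclin A2, was at 101, 93.9 and 87.5 against 81.5, 91.2 and 96.5 FPKM, again with overlap. Their differences were 0.08 (95% interval -0.13 to 0.29), 0.06 (-0.25 to 0.38) and -0.07 (-0.31 to 0.17). Ccnb2 was less abundant, at 18.2, 16.5 and 16.2 against 16.8, 20.0 and 20.2 FPKM. Cyclin A2 RNA relative to cyclin B2 RNA lay between 5.39 and 5.68 for controls and between 4.56 and 4.85 for YKL-40-labelled libraries, a ratio without overlap that was not tested. The annotated transcripts of Ccna2 and Ccnb2 differ in length, at 2483 and 1531 bases.

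Plk1, the polo-like kinase of centrosome maturation and spindle assembly, had the largest difference above 0. It was at 38.02, 36.5 and 36.2 FPKM across controls 1 to 3 and at 36.7, 49.0 and 49.2 across YKL-40-labelled libraries 1 to 3. Libraries 2 and 3 lay above every control and library 1 lay within them, and the difference was 0.27 (95% interval -0.03 to 0.57; adjusted p = 0.326 in limma). Melk, a kinase that is abundant in dividing cells, was at 22.8, 23.1 and 21.2 against 25.4, 27.9 and 25.7 FPKM. All 3 YKL-40-labelled values lay above all controls, with a difference of 0.23 ± 0.09 (SE; adjusted p = 0.246 in limma), and library 1 was not low for this gene. Aurka, the Aurora kinase of the spindle poles, was at 11.6, 11.98 and 10.97 against 12.1, 12.7 and 12.8 FPKM, a separation of the groups by a small margin. Cdc25c, the phosphatase that activates Cdk1, was among the least abundant of the 46, at 6.07 ± 1.07 and 5.64 ± 1.24 FPKM (SD, n = 3).

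Of the 15 genes of the kinetochore, the spindle checkpoint and the chromosomal passenger complex, 0 passed, 11 had a difference below 0 and the median was -0.07. Cenpa, the histone H3 variant that marks the centromere, had a control mean of 23.0 ± 0.774 FPKM and a YKL-40-labelled mean of 23.0 ± 1.22 (SD, n = 3). Its 95% interval from limma ran from -0.21 to 0.20. The lowest differences of the group belonged to a pair of very long proteins of the outer kinetochore. Cenpe, a kinesin that moves chromosomes to the spindle equator, was at 9.35, 7.87 and 6.55 against 4.18, 7.85 and 5.13 FPKM, a difference of -0.43 (adjusted p = 0.337 in limma). Cenpf was at 156, 115 and 107 against 80.6, 128 and 92.0 FPKM, a difference of -0.34 (adjusted p = 0.428 in limma). In both genes, YKL-40-labelled libraries 1 and 3 lay below every control and library 2 lay among them.

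The NDC80 complex is the rod that holds the microtubule, made of Ndc80 and Nuf2 at its outer end and Spc24 and Spc25 at its inner end. The RNAs were not at equal levels: Ndc80 had 13.8 ± 2.86 and 13.01 ± 1.02 FPKM and Nuf2 4.50 ± 0.788 and 4.64 ± 0.799, the lowest mean of all 46 genes. Spc24 was at 21.5, 20.4 and 23.0 FPKM across controls 1 to 3 and at 20.7, 25.1 and 26.6 across YKL-40-labelled libraries 1 to 3. Spc25 was at 23.5, 20.9 and 18.5 against 16.6, 16.4 and 20.1 FPKM. The groups overlapped for each of these genes, and the differences of Spc24 and Spc25 had opposite signs, 0.15 and -0.23. The ratio of Spc24 to Spc25 was 0.918, 0.978 and 1.24 across controls 1 to 3 and 1.25, 1.53 and 1.32 across YKL-40-labelled libraries 1 to 3, which do not overlap, though control 3 and library 1 nearly touch. The annotated transcripts of the pair are of similar length, 1366 and 1352 bases.

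The chromosomal passenger complex joins the kinase Aurkb to Incenp, Birc5 (survivin) and Cdca8 (borealin). Birc5 was at 5.88, 5.86 and 6.15 FPKM across controls 1 to 3 and 6.38, 6.23 and 6.46 across YKL-40-labelled libraries 1 to 3, and Cdca8 was at 14.6, 15.1 and 14.8 against 15.4, 16.9 and 17.0. Both were higher in every YKL-40-labelled library, by 0.08 and 0.13 on the log2 scale, and neither passed (adjusted p = 0.686 and 0.461 in limma). Aurkb was at 32.9, 32.5 and 34.4 against 28.5, 39.8 and 31.7 FPKM, and Incenp at 41.8, 36.3 and 37.5 against 33.5, 45.4 and 34.7. These values spread more widely among the YKL-40-labelled libraries, with library 2 above all controls and libraries 1 and 3 below all of them. Of the checkpoint genes, Bub1 was at 33.6, 34.7 and 32.5 against 31.7, 31.8 and 32.1 FPKM, lower in all 3 YKL-40-labelled libraries by a narrow margin (-0.07, adjusted p = 0.665 in limma). Bub1b, Mad2l1 and Ttk had differences of -0.19, -0.08 and -0.16, and YKL-40-labelled library 1 held the lowest value of each. Knstrn, an adaptor between kinetochore and spindle, had a difference of -0.10.

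**Figure D3:**
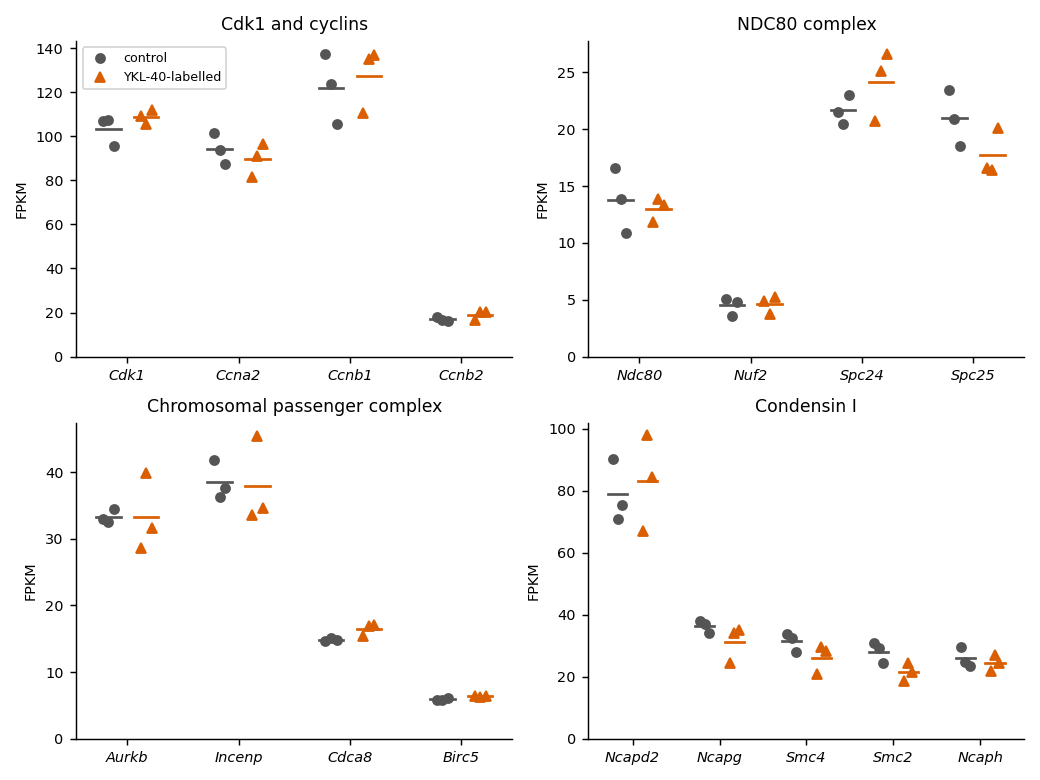
FPKM of the subunits of 4 complexes in each library, with controls as circles, YKL-40-labelled libraries as triangles and lines at the means. The circles and triangles overlap for all 17 genes but Cdca8 and Birc5, and Ccnb2, Nuf2 and Birc5 lie far below their partners in both groups.

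The 10 spindle and cytokinesis genes had a median difference of -0.05, with 2 above 0, and 0 passed. YKL-40-labelled library 1 held the lowest value of all 10. Prc1, which bundles the microtubules of the central spindle, was the most abundant of the 46 genes, at 170, 168 and 156 FPKM across controls 1 to 3 and 146, 172 and 167 across YKL-40-labelled libraries 1 to 3, with a difference of -0.02 (95% interval -0.25 to 0.20). Hmmr, a spindle protein that also binds hyaluronan, was at 47.4, 50.3 and 42.6 against 27.1, 42.7 and 41.7 FPKM. Its difference of -0.35 (adjusted p = 0.356 in limma) was -0.14 without library 1. The kinesins Kif11, Kif20a, Kif23, Kif2c and Kif4 had differences of -0.17, -0.05, 0.02, -0.05 and -0.18. Tpx2, an activator of Aurka, Anln, a scaffold of the cleavage furrow, and Nusap1, a microtubule-binding protein, had -0.04, 0.01 and -0.22.

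The chromosome proteins had the lowest group median of the 5 roles, -0.22 over 7 genes, 6 of them below 0, and 0 passed. Without YKL-40-labelled library 1 that median was -0.07, and without YKL-40-labelled library 2 or 3 it was -0.30 and -0.31. Mki67, the proliferation antigen Ki-67 that coats mitotic chromosomes, was at 136, 129 and 96.1 FPKM across controls 1 to 3 and at 58.6, 128 and 74.5 across YKL-40-labelled libraries 1 to 3. Libraries 1 and 3 lay below every control and library 2 lay among them. The difference was -0.52 ± 0.28 (SE; adjusted p = 0.370 in limma), and it was -0.28 without library 1 and -0.84 without library 2 (adjusted p = 0.665 and 0.0829 in limma). Top2a, the topoisomerase that untangles sister DNA, was at 121, 110 and 101 against 78.7, 117 and 112 FPKM, a difference of -0.12.

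Condensin I is a ring of Smc2 and Smc4 closed by Ncaph, with Ncapd2 and Ncapg attached. Smc2 was at 30.8, 29.2 and 24.4 FPKM across controls 1 to 3 and at 18.5, 24.6 and 21.7 across YKL-40-labelled libraries 1 to 3, and only library 2 reached the lowest control. Its difference of -0.37 ± 0.14 (SE) had the lowest p of the 46 genes (adjusted p = 0.224 in limma). Smc4 was at 33.8, 32.4 and 28.1 against 20.8, 29.6 and 28.1 FPKM, a difference of -0.27. Ncapg and Ncaph had -0.22 and -0.09. Ncapd2, by contrast, was at 90.3, 70.8 and 75.5 against 67.2, 97.9 and 84.5 FPKM, a difference of 0.07. The ratio of Smc2 to Ncapd2 was 0.341, 0.413 and 0.323 across controls 1 to 3 and 0.276, 0.251 and 0.257 across YKL-40-labelled libraries 1 to 3, without overlap. Of the 28 ratios between subunits of the 4 complexes, 8 (28.6%) did not overlap between the groups, where 25.3% of all ratios between tested genes above 0 in every library and 19.7% of the 1035 ratios between the 46 genes did not, so the share is near the background. None of the ratios was tested, and the 3 whose values are given here and above were picked after their values were seen.

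The 5 genes of mitotic exit and transcription had differences between -0.16 and 0.03, and 0 passed. Cdc20, the activator of the anaphase-promoting complex, was at 65.3, 57.6 and 58.6 FPKM across controls 1 to 3 and 54.3, 72.1 and 59.7 across YKL-40-labelled libraries 1 to 3. Ube2c, the ubiquitin-conjugating enzyme of that complex, had 70.7 ± 3.62 and 69.1 ± 3.98 FPKM, Pttg1, the gene of securin, 11.3 ± 1.73 and 11.5 ± 1.11, and Cdca3, a trigger of mitotic entry, 43.8 ± 1.68 and 44.0 ± 1.85 (SD, n = 3). Foxm1, the transcription factor of this gene programme, was at 31.5, 31.9 and 30.5 against 21.4, 33.8 and 29.8 FPKM. Library 1 stood apart with the lowest value and the other 5 lay between 29.8 and 33.8 FPKM, for a difference of -0.16 (adjusted p = 0.626 in limma).

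The differences also ran with transcript length. Length here is the spliced length, the median over the transcripts annotated for a gene in GENCODE. Across the 46 genes, the difference and log2 length had a Pearson correlation of -0.64 and a Spearman correlation of -0.61, against -0.16 and -0.24 across the 11151 tested genes with a length. Genes are not independent replicates, they share the 6 libraries, and these values describe the table. The 15 shortest genes (720 to 2140 bases) had a median difference of 0.03, the next 16 of -0.05 and the 15 longest (3668 to 11130 bases) of -0.19. Of the 15 longest, 13 lay below 0. Tested genes within the same length limits had medians of 0.02, -0.04 and -0.10. The 5 longest genes, Top2a, Smc2, Cenpe, Mki67 and Cenpf, had differences from -0.52 to -0.12, and among the 5 shortest, Pttg1, Cenpa, Spc25, Spc24 and Cdca8, they ran from -0.23 to 0.15.

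**Figure D4:**
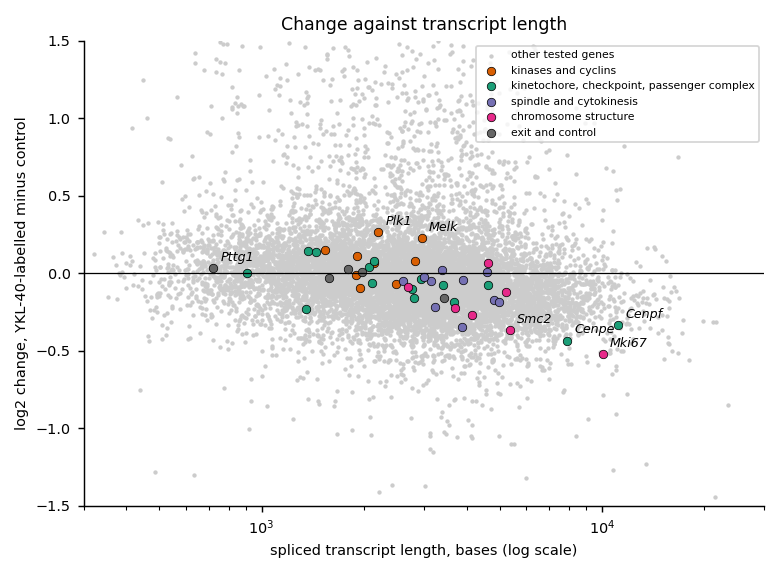
Difference between the groups on the log2(FPKM + 1) scale, YKL-40-labelled minus control, against spliced transcript length in bases (log axis), for the 46 genes by role and for the other tested genes in grey (values beyond 1.5 are not drawn). The longest of the 46, Cenpf, Mki67 and Cenpe, lie at -0.34, -0.52 and -0.43, and Pttg1, the shortest, at 0.03.

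The length pattern was uneven between libraries. Each library was compared with the mean of the other 5, and its differences over the 46 genes were set against log2 length. The Pearson correlation was -0.73 for YKL-40-labelled library 1, -0.52 for library 3 and 0.40 for library 2, and it was 0.62, 0.37 and 0.20 for controls 1, 2 and 3. Over all tested genes it was -0.36 for YKL-40-labelled library 1 and between -0.05 and 0.19 for the others. The slope over all tested genes was -0.125 on the log2 scale per doubling of length in YKL-40-labelled library 1 and 0.077 in control 1. Without library 1, the correlation of the group difference with length across the 46 genes was -0.45. When the linear trend on length was removed from each library, 0 of 46 genes passed in limma (unadjusted p under 0.05 in 2, where 18.5% of all genes in that fit were), the median over the 46 was -0.05, and the differences were -0.39 for Mki67, -0.32 for Cenpe, -0.19 for Cenpf and -0.30 for Smc2.

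Other genes of mitosis and its control also had small differences, without a call. Of 124 further genes in 5 lists, 0 passed in limma, with 15 lower and 0 higher at an unadjusted p under 0.05, where 9.24% and 8.71% of all tested genes were, and the median difference was -0.07. The groups did not overlap for 19 lower and 6 higher genes of the 124, against 14.2% and 10.3% of all tested genes. In the list of 36 other kinetochore genes (median -0.06), Cenpq, a subunit of the inner kinetochore, had the lowest p, with 33.2, 28.3 and 21.97 FPKM across controls 1 to 3 and 17.0, 18.8 and 21.0 across YKL-40-labelled libraries 1 to 3 (-0.52). Among 22 other spindle and cytokinesis genes (median -0.12) the lowest p belonged to Ckap2 and the kinesin Kif18a, at -0.31 and -0.32. Among 15 genes of cohesin and its regulators, with condensin II (median -0.18), they were Stag2 and Pds5b. Stag2, a cohesin subunit, was at 65.1, 63.0 and 54.6 against 43.7, 47.4 and 49.8 FPKM (-0.37), and Pds5b, a regulator of cohesin, had -0.43. Among 28 other regulators (median -0.04), the subunits of the anaphase-promoting complex Cdc27 and Anapc10 had the lowest p, each with -0.33.

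The last of the 5 lists holds 23 MuvB, Rb, E2F, Myb and NF-Y genes, the transcription factors upstream, whose median difference was -0.07. Of these, 0 passed in limma, 5 were lower and 0 higher at an unadjusted p under 0.05, and the groups did not overlap for 6 lower genes and 1 higher gene. The shares of all tested genes were 9.24% lower and 8.71% higher at that p, and 14.2% lower and 10.3% higher without overlap. Nfya, the subunit of NF-Y that reads the CCAAT box, was at 35.3, 35.0 and 34.2 FPKM across controls 1 to 3 and at 24.3, 28.9 and 26.5 across YKL-40-labelled libraries 1 to 3. All 3 lay below all controls, with a difference of -0.38 ± 0.09 (SE; adjusted p = 0.113 in limma). E2f3, an E2F activator of the cell cycle, had -0.34 (adjusted p = 0.15 in limma). The 36 genes of DNA replication, the step before mitosis, had a median of 0.00 with 18 above and 18 below, and 0 passed in limma (2 lower at an unadjusted p under 0.05). Gins3, a subunit of the replicative helicase complex, had the lowest p of that list, at 29.5, 31.7 and 30.2 against 22.8, 23.3 and 21.9 FPKM (-0.41, adjusted p = 0.0845 in limma). Pole2, a subunit of DNA polymerase epsilon, had -0.25. The mean level of the replication list was 4.70, 4.68 and 4.63 across controls 1 to 3 and 4.45, 4.8 and 4.69 across YKL-40-labelled libraries 1 to 3, lowest in library 1 as for the mitosis genes.

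Levels of cell type markers also differed between these libraries. The mean level of 10 melanocyte markers in log2(FPKM + 1) was 7.84, 7.92 and 7.62 across controls 1 to 3 and 7.63, 7.95 and 8.0 across YKL-40-labelled libraries 1 to 3, lowest in control 3 and YKL-40-labelled library 1, which also had the lowest levels of the mitosis genes. The level of the 46 genes minus that of the melanocyte markers was -2.81, -3.00 and -2.80 across controls 1 to 3 and -2.97, -2.96 and -3.11 across YKL-40-labelled libraries 1 to 3, which overlap. With the melanocyte level as a covariate 0 of 46 genes passed and 6 were lower at an unadjusted p under 0.05 in limma, Cenpe, Hmmr, Smc2, Smc4, Ncapg and Mki67, where 20.1% of all tested genes reached that level in the same fit (10.4% as lower), near the share among the 46. The summed FPKM of 16 skeletal muscle markers was 54.8 to 228 for controls and 7.31 to 36.8 for YKL-40-labelled libraries. In limma without a covariate, 12 of 13 tested muscle markers were lower at an unadjusted p under 0.05. Of all tested genes, 9.24% were lower and 8.71% higher at that level in the same fit. Of 15 leukocyte markers 9 were tested, all 9 were higher at that level, and the sums were 35.9 to 101 against 143 to 220 FPKM. Of 8 fibroblast markers 7 were higher at that level, with sums of 31.4 to 248 against 226 to 410 FPKM, and of 6 endothelial markers 1 was, with sums of 39.8 to 87.4 against 48.7 to 76.7. In these 3 lists and the muscle list, 0 genes passed over all genes, and 0 markers were at 0 in all libraries. A marker low in 1 group could reach the mean of 1 FPKM through the group where it is high. The muscle and leukocyte counts of tested markers are thus partly set by that filter, whereas the sums cover all listed markers. The part of muscle, leukocyte, fibroblast and endothelial cells in the levels of the mitosis genes was not tested. When the covariate was the muscle level, 0 of 46 genes passed in limma and 0 reached an unadjusted p under 0.05, where 5.01% of all tested genes did. In that fit 9 of the 46 genes had the other sign, and the differences were -0.32 for Mki67 and -0.13 for Cenpf, against -0.65 and -0.41 with the melanocyte level.

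**Figure D5:**
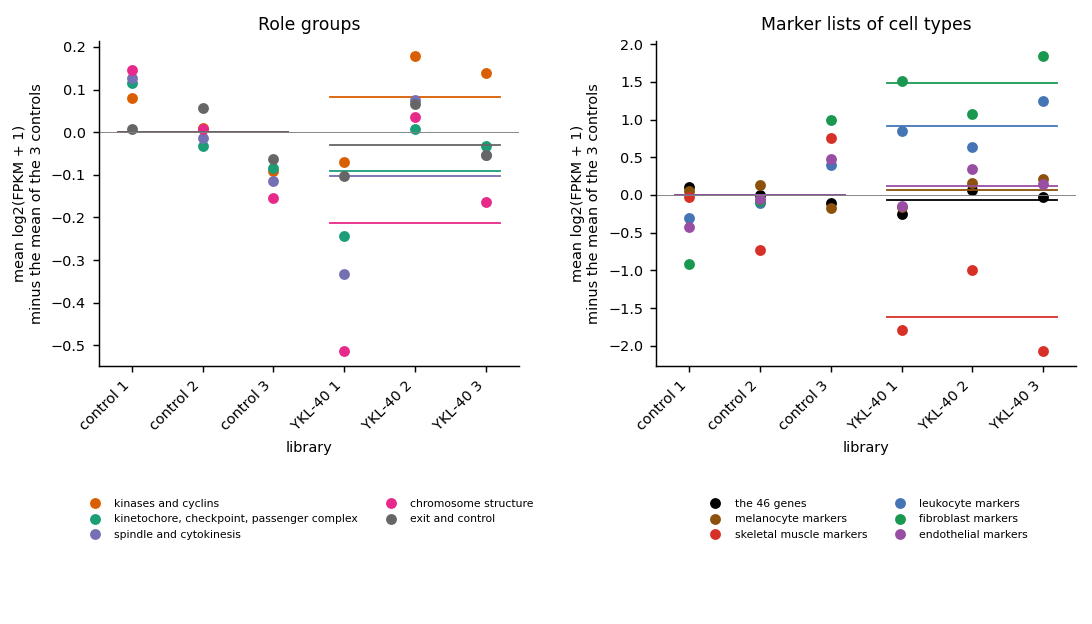
Mean log2(FPKM + 1) minus the mean of the 3 controls in each library, for the 5 role groups (left) and for all 46 genes with the marker lists of cell types (right, wider axis), with lines at group means. Among the roles, YKL-40-labelled library 1 is lowest for the chromosome proteins, and the differences of the muscle, leukocyte and fibroblast lists are larger than that of the 46 genes.

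Some of these levels can hold reads of other genes, since the library kit keeps no strand. Exons of Kif20a overlap those of Cdc23 on the other strand over 31.8% of their bases. The shares were 22.8% for Ube2c with Tnnc2, 21.8% for Prc1 with Rccd1, 20.8% for Ncapg with Lcorl, 15.1% for Kif4 with Pdzd11 and 10.4% for Ccna2 with Exosc9. Tnnc2, the troponin C of fast skeletal muscle, was at 6.52, 4.28 and 19.96 FPKM across controls 1 to 3 and 0.331, 2.69 and 0.345 across YKL-40-labelled libraries 1 to 3. In control 3, where Tnnc2 was highest, Ube2c was at 69.9 FPKM. The part of Tnnc2 reads in the level of Ube2c was not tested. For Ccnb1, 42.1% of the windows of 50 bases in its longest transcript also occur in transcripts of other genes, among them the pseudogene Ccnb1-ps, so its level is uncertain. For Plk1 that share was 10.9%, with Plk-ps1 and Gm44985.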

How the data were processed

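The deposited table gives 1 FPKM value per gene and library, as made by the authors. Build mm10 is given in the submitters' processing notes, and StringTie, HISAT2, limma, DESeq2 and bcl2fastq 2.0 are listed there without their roles; annotation and filters are not given in the sources used here. The TruSeq v2 kit was used on 2 µg of RNA per library, per the labels' protocols. Depth could not be recovered: among genes below 0.3 FPKM, at most 12 shared the most common ratio to control 1.

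All 6 columns were used. Values were taken as log2(FPKM + 1), which understates differences of low genes. The test covered the 11241 genes whose mean reached 1 FPKM, all 46 members among them. It was made in R 4.3.3 by limma 3.58.1 with a variance trend, two-sided, and Benjamini-Hochberg adjustment over all of them at 0.05. It was tried on simulated data (5 runs, 11241 genes, 200 of them changed), where 5.21% of calls were false. Genes were drawn independently there, without shifts shared within a library. Lists were described by counts and medians. Members and lists were chosen with earlier results of these data known. All members could be named. The rule took for full values the subunits of 4 complexes, Mki67, Top2a, Plk1, Foxm1 and Prc1. It also took the most and least abundant member and the 5 of lowest p. Of these genes, Ncapg and Ncaph are given by their differences only, and Ndc80 and Nuf2 by means with SD. Of each other list the rule named the 2 genes of lowest p. Of the genes this rule takes, 1 is not reported here. Alternatives were other pseudocounts, filters, scalings, variance models, weights and covariates, the replicate number as a block, leaving out each library, and, chosen after seeing the data, removal of the length trend. Lengths came from GENCODE M21, and 46 of 46 members matched RefSeq of GRCm38.p6 by symbol.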

Additional observations from a re-analysis of the deposited data

How the results depend on the processing

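The count of 0 called among the 46 genes held in limma under all 18 alternatives, with the lowest adjusted p at 0.056 for Plk1 under array quality weights. The filter at a mean of 5 FPKM tested 45 of the 46 (Nuf2 was left out). In most alternatives few of all tested genes were called, so a count of 0 among 46 was likely there and says little about stability. The count of all genes called, 49, was 1 without a filter, 1111 with array quality weights, 0 with a covariate for skeletal muscle (563 at an unadjusted p under 0.05) and 1 with the melanocyte level. It ran from 0 (without control 2, 1345 at an unadjusted p under 0.05) to 238 (without YKL-40-labelled library 2) when 1 library was left out. The muscle covariate cannot be told apart from the group label, since its level did not overlap between the groups. The median of the exit and control genes was -0.09 with array quality weights and -0.09 with the length trend removed, against 0.01; the cause was not tested. The medians of the 46 genes and of the other 4 roles moved by less than the spread between libraries, and that of the 46 ran from -0.11 to 0.02 without 1 library. Of the 46 genes, the number with the other sign was 9 with the muscle covariate, 5 with the melanocyte covariate, 4 with array quality weights, 3 with median of ratios scaling, 3 with the length trend removed and 0 with the other pseudocounts, filters, sum scaling, no variance trend and the block. It was 5 to 13 without 1 library.

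The labels use replicate numbers 1 to 3 in both groups. They do not state that these numbers pair the samples, so the numbers were not taken as pairs. Deviations from the group means had correlations of -0.0832, -0.185 and 0.0017 between same-numbered libraries over 11241 genes. Between libraries of unlike number they ran from -0.137 to 0.204. With 3 libraries per group these values cannot decide whether samples were paired. With the replicate number as a block, 0 of the 46 genes and 120 of all genes were called, and the median of the 46 was -0.05. Depth is unknown, so precision rests on the spread between 3 libraries per group.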
